A study of Arabidopsis thaliana with 24 samples.

Results

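Small heat shock proteins were followed across 8 groups of Arabidopsis thaliana seedlings, as 10 genes chosen by their locus numbers among 23929 genes measured. HSP18.2, HSP17.4, AT1G53540, AT2G29500 and AT1G07400 encode cytosolic proteins of class I, and HSP17.6A and HSP17.6II encode cytosolic proteins of class II. HSP21 is the plastid member, ATHSP22.0 the member of the endoplasmic reticulum and HSP23.6-MITO the mitochondrial member. The seedlings were of the accession Col-0, called Col here, of 2 single mutants that the title of the series calls hypermorphic, vq1 and vq10, or of their double mutant vq1vq10. No other allele or agent is named, and nothing in the labels says how the alleles were made. Whole seedlings grown for 14 days in MS medium with 1% sucrose were kept on day 15 in dim light for 4 h at 21% oxygen (normoxia) or 1% oxygen (hypoxia). Each genotype and condition had 3 biological replicates, giving 24 RNA-seq libraries.

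Small heat shock proteins are chaperones that need no ATP. They bind proteins that are unfolding and hold them in a state from which larger chaperones of the HSP70 and HSP101 families can refold them. In Arabidopsis their genes are known for a low level in unstressed leaves, a strong rise in heat under the control of heat shock factors, and expression in maturing seeds. A related rise under low oxygen has been described, with the factor HSFA2 among its regulators. The comparisons here ask how the 10 genes respond to 1% oxygen in each genotype, and whether the mutants differ from Col.

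Libraries held 21150032 to 22645177 estimated reads. Levels are in CPM, the read count scaled to library size (counts per 1000000), or in TPM, the authors' length-scaled unit, which alone is used to compare genes with each other. Whole seedlings were measured, so fewer cells of a type and less RNA per cell cannot be told apart. All 5 markers of green tissue were read in every group, with a sum of 58190 to 72430 CPM under normoxia and 67200 to 95510 under hypoxia. VQ10 was called higher in the libraries labelled vq10 and vq1vq10 than in Col, by log2 changes of 2.56 and 2.30 under normoxia and 2.57 and 2.44 under hypoxia. VQ1 was called in none of the libraries labelled vq1 or vq1vq10 against Col (log2 changes of -0.42 to 0.12), so its transcript level does not check those labels. The known hypoxia genes did check the oxygen labels, since the sum of 11 of them was 50.01 to 139 CPM in normoxic libraries against 2268 to 3376 CPM in hypoxic ones.

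The genes lie on all 5 chromosomes (positions from the TAIR10.1 annotation). HSP17.6II (chr5:3882231-3883111, minus strand) and HSP17.6A (chr5:3883957-3884838, minus strand) are neighbours separated by 845 bases, and HSP18.2 lies farther along the chromosome (chr5:24062323-24063300, plus). HSP17.4 is at chr3:16984118-16984867 (minus), AT1G53540 at chr1:19980299-19981199 (plus), AT1G07400 at chr1:2274926-2275783 (plus) and AT2G29500 at chr2:12633065-12634120 (minus). The organelle members are HSP21 (chr4:13818825-13819971, minus), ATHSP22.0 (chr4:6370338-6371372, plus) and HSP23.6-MITO (chr4:12916926-12918110, plus). HSP21 and HSP23.6-MITO each have 1 intron in the annotation and the other 8 genes have none. HSP17.4 shares 60 of its 750 bases with AT3G46220 and 453 with the long noncoding gene AT3G07365, both on the opposite strand. The strand handling of the counting is not given in the sources used here, so its value is uncertain to that extent. Coding sequences were most alike between AT1G07400 and the related gene AT1G59860 (90.3% identical, longest shared run 43 bases), HSP17.6A and HSP17.6II (87.7%, 33 bases) and HSP17.4 and AT1G53540 (85.6%, 29 bases). How reads shared by such pairs were counted is not given either, and the split of reads within a pair is uncertain.

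Heat shock factors bind repeats of GAA in alternating orientation, so the 250 bases before each annotated gene start were searched for that element on both strands. A 3-unit form, GAA, TTC and GAA with NN between neighbours, occurred before 2 of the 10 genes, HSP17.4 and AT1G53540, and in 0.386% of 27443 such windows of protein-coding genes. A 2-unit form, GAANNTTC or TTCNNGAA, both of which lie inside every 3-unit match, occurred before 4 genes, the others being HSP17.6A and HSP21, and in 16.1% of windows. At least 2 matches of that form were before 2 genes (1.75% of windows) and at least 3 before HSP17.4 alone (0.193% of windows). Of 3 further motifs, counted on either strand, CCGAC was before HSP18.2 and AT1G53540 (12% of windows) and TATAAA before 5 (47.3%). The hypoxia-responsive promoter element HRPE, with its 3 variable positions left free, was before none of the 10 (0.809%). The TATAAA matches before HSP17.6A, AT1G53540 and HSP23.6-MITO lay on the strand opposite to the gene. Below are the windows of HSP17.4 (chr3:16984868-16985117, minus strand, 2 matches of the 3-unit form), AT1G53540 (chr1:19980126-19980298, plus strand, cut back to 173 bases at the neighbouring gene, 1 match), HSP21 (chr4:13819972-13820221, minus strand, the 2-unit form only) and HSP23.6-MITO (chr4:12916676-12916925, plus strand, no match). They are shown to compare windows with and without an exact match. Units with a mismatch, and elements outside these 250 bases, were not searched for. Sequences are from RefSeq TAIR10.1, 5′ to 3′ towards the gene, and capitals mark matches of the 3-unit or 2-unit form.
HSP17.4: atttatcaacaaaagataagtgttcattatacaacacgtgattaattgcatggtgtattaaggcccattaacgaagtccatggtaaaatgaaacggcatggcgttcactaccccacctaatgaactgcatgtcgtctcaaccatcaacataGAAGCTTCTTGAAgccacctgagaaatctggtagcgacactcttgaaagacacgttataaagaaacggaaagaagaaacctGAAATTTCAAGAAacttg
AT1G53540: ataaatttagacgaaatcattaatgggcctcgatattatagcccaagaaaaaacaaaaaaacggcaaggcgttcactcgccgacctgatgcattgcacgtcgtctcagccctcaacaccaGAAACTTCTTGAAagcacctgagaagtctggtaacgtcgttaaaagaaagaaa
HSP21: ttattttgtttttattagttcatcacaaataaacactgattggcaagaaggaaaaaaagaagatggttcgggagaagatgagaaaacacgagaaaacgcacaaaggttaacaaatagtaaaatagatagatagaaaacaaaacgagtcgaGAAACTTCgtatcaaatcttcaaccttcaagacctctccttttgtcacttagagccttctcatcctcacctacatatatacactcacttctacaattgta
HSP23.6-MITO: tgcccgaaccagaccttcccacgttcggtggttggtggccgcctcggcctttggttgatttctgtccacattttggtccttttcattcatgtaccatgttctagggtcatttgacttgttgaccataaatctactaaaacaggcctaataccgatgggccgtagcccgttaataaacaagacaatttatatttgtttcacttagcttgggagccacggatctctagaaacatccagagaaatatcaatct
In HSP17.4 the 3-unit matches begin 99 and 18 bases before the start, and in AT1G53540 the match begins 53 bases before it. A match is a description of letters and not of a bound site.

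At 21% oxygen the 10 genes were at or near the limit of detection apart from 3 cytosolic genes of class I. Over the 12 normoxic libraries the median level was 3.98 TPM for AT2G29500 (3.16 to 5.45), 1.77 TPM for HSP18.2 (0.89 to 3.92) and 1.36 TPM for AT1G07400 (0.42 to 1.98). AT2G29500 stood at or above 3.16 TPM in each library and its share of the summed TPM of the 10 genes had a median of 48.0%. HSP17.4 followed at a median of 0.57 TPM (0.19 to 1.16), AT1G53540 at 0.15 TPM (0 to 0.38) and HSP17.6A at 0.12 TPM (0 to 0.84). The ranges of HSP18.2 and AT1G07400 overlap, as do those of HSP17.4, AT1G53540 and HSP17.6A, so the order within these sets is not separated from the spread. Ranges also overlap between AT2G29500 and HSP18.2, and between HSP17.4 and both HSP18.2 and AT1G07400. As a share of the summed TPM, AT2G29500 stayed at or above 41.3% and HSP18.2 at or below 31.9%. HSP17.6II, HSP21, ATHSP22.0 and HSP23.6-MITO had a median of 0 TPM, with 6, 5, 2 and 8 reads in all over the 12 libraries. Where the 3 libraries of a group had no read, folds are lower bounds computed as if the group held 3 reads. Such bounds and the intervals given for reads cover counting error only.

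At 1% oxygen all 10 genes had reads in at least 11 of 12 libraries, and the order of the medians changed. The highest medians were 7.20 TPM for AT2G29500 (3.26 to 14.4), 6.94 TPM for AT1G07400 (2.25 to 16.7), 5.43 TPM for HSP17.6A (1.94 to 15.3) and 4.94 TPM for HSP17.4 (1.91 to 14.9). Their ranges overlap. HSP18.2 had a median of 3.46 TPM (1.72 to 6.37), HSP23.6-MITO 2.76 TPM (1.21 to 8.68) and HSP17.6II 2.38 TPM (0.24 to 8.46). These ranges overlap with each other and with those of the genes just named, so the order is not separated from the spread. AT1G53540 had a median of 1.29 TPM (0.55 to 5.23), ATHSP22.0 0.635 TPM (0.13 to 2.54) and HSP21 0.525 TPM (0 to 2.62). The share of AT2G29500 in the summed TPM had a median of 22.1% and that of HSP18.2 moved from 22.2% to 9.23%, while that of HSP17.6A moved from 1.55% to 14.5%.

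**Figure D1:**
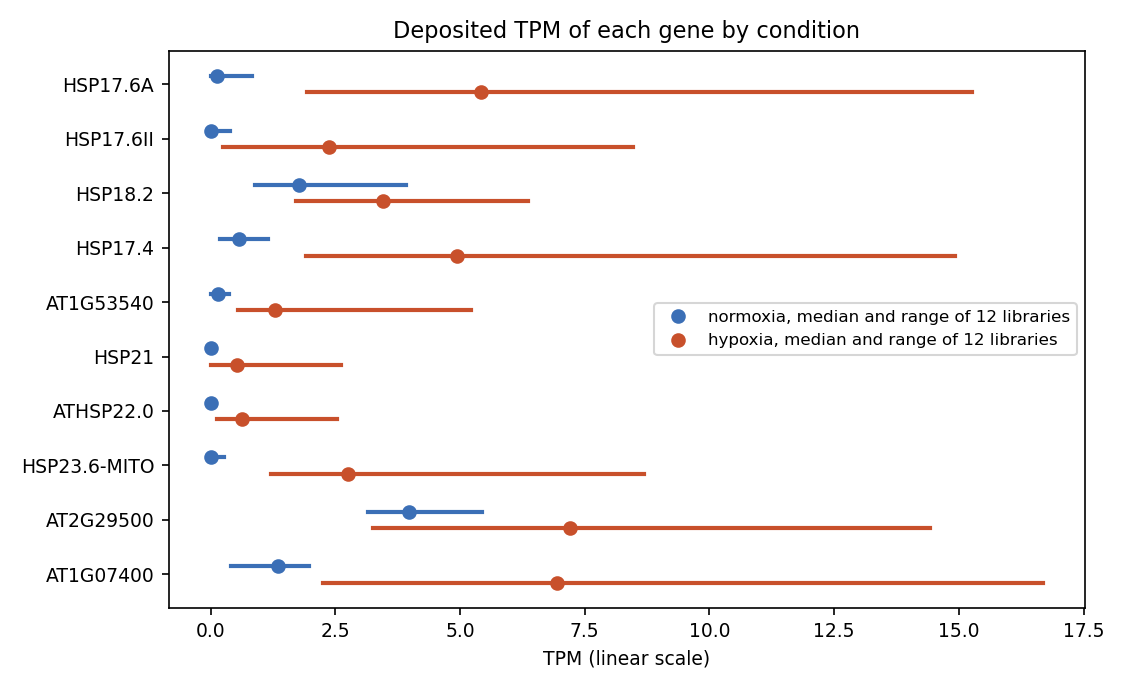
Level in TPM (x axis, linear) of each of the 10 genes (y axis), with the median as a point and the range of the 12 libraries of a condition as a line. AT2G29500 has the highest median in both conditions (3.98 and 7.20 TPM), and 4 genes have a median of 0 TPM under normoxia.

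Hypoxia raised 9 of the 10 genes of Col, 8 of vq10 and all 10 of both vq1 and vq1vq10 at an adjusted p under 0.05 (edgeR), and lowered none. Over all 20110 genes tested the shares called higher were 21.9% for Col, 19.1% for vq1, 19.5% for vq10 and 17.7% for vq1vq10. Lower calls were 19.9%, 16.5%, 18.2% and 15.8% of all genes in that order. The median log2 change over the 10 genes was 3.73, 3.92, 3.12 and 4.72 in that order, with genes without normoxic reads at their lower bound and genes with 1 to 3 normoxic reads at their read ratio. The median over all genes tested was -0.01 in each. The filter on low counts asks for about 0.446 CPM in 3 libraries, and 7 of the 10 genes passed it only through hypoxic libraries. These were HSP17.6A, HSP17.6II, HSP17.4, AT1G53540, HSP21, ATHSP22.0 and HSP23.6-MITO, with at most 2 of 12 normoxic libraries over that level. They had to differ, so that the counts, medians and calls of these genes are descriptions and no support for a change of the set. HSP18.2, AT2G29500 and AT1G07400 passed in normoxic libraries as well. Every hypoxic library lay above every normoxic one for 9 genes of Col (23.3% of all tested genes), 10 of vq1 (25.5%), 8 of vq10 (23.7%) and 10 of vq1vq10 (24.4%).

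**Figure D2:**
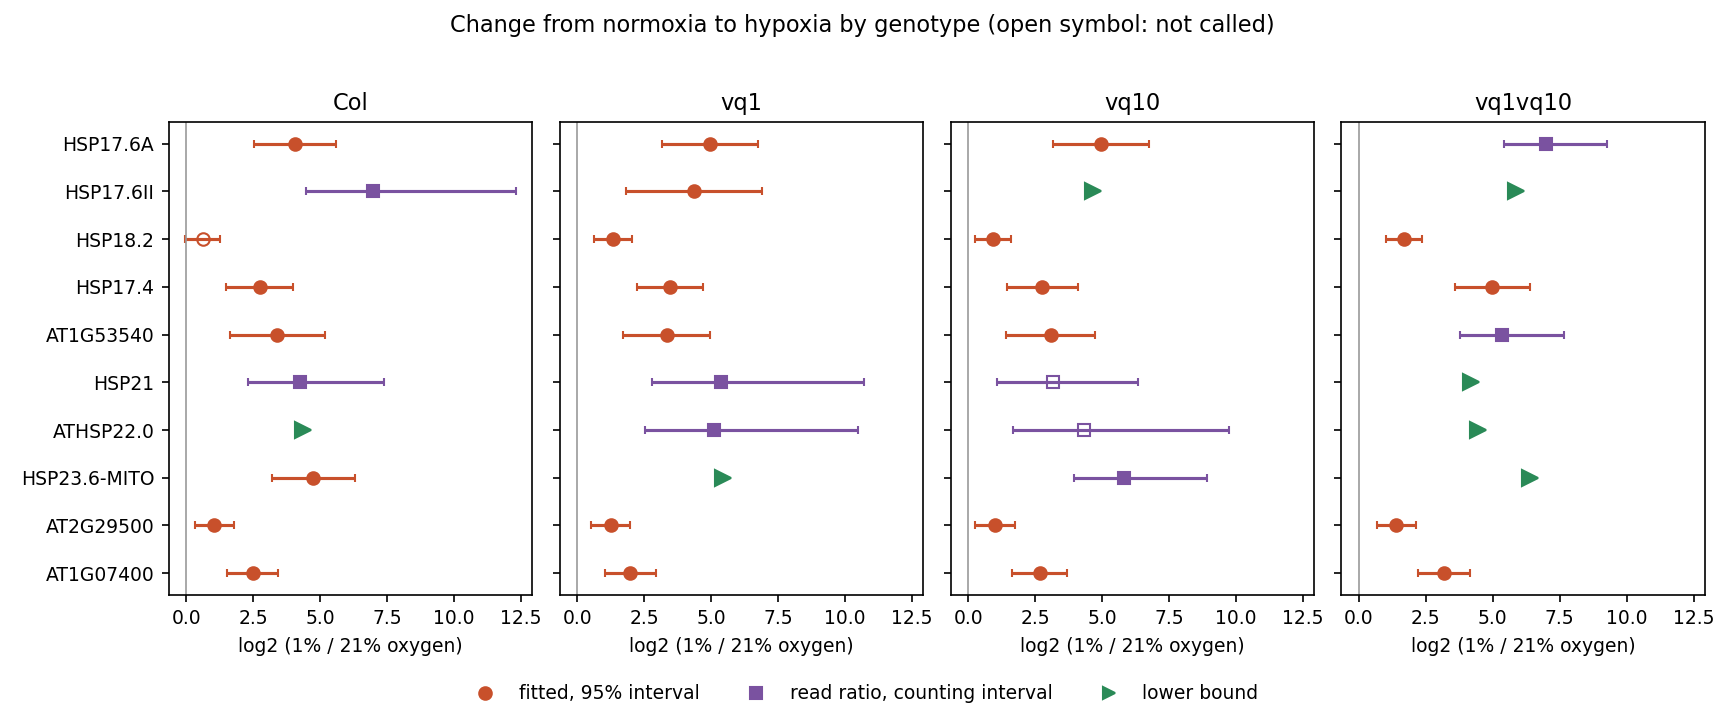
Log2 change from 21% to 1% oxygen (x axis) for each of the 10 genes (y axis) in the 4 genotypes. Circles are fitted changes with 95% intervals, squares are read ratios with 95% counting intervals where the normoxic group held 1 to 3 reads, triangles are lower bounds where it held none, and open symbols were not called. HSP18.2 and AT2G29500 lie between 0.61 and 1.69 in all 4 genotypes, and the other genes lie at 1.98 or above.

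Both class II genes had higher levels under hypoxia in every genotype. They entered the test only through hypoxic libraries, so their calls are descriptions. HSP17.6A had 0.0421, 0.442 and 0.168 CPM in normoxic Col and 4.19, 5.69 and 1.41 CPM in hypoxic Col. The hypoxic libraries were all higher, the third much less so than the others. The log2 change was 4.06 ± 0.75 (SE, n = 3 libraries per group, edgeR adjusted p = 0.00015). It was 4.95 ± 0.86 in vq1 (edgeR adjusted p = 9.5e-05) and 4.95 ± 0.86 in vq10 (9.6e-05). In vq1vq10, where normoxic libraries held 3 reads in all, hypoxic CPM were 8.79, 5.22 and 2.03 and the ratio was 127 (95% counting interval 43.3 to 621). Its neighbour HSP17.6II had 0, 0 and 1 read in normoxic Col and 49, 53 and 4 reads in hypoxic Col, a ratio of 127 (95% counting interval 22.2 to 5047, edgeR adjusted p = 0.0021). In vq1 it went from 5, 0 and 0 reads to 53, 22 and 17 (log2 change 4.36 ± 1.23). All 5 normoxic reads were in replicate 1 of vq1, without which that group held none and the gene was still called (edgeR adjusted p = 0.01). No normoxic read was found in vq10 or vq1vq10, where the gene was at least 25.1-fold and at least 58.1-fold higher in hypoxia.

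The cytosolic class I genes differed in the size of their change, and a split between them was not tested. HSP18.2 had 1.39, 2.29 and 1.01 CPM in normoxic Col and 1.26, 3.30 and 2.60 CPM in hypoxic Col. The groups overlap, with hypoxic replicate 1 below normoxic replicates 1 and 2, and the change did not pass the test (0.61 ± 0.32 log2, edgeR adjusted p = 0.13). Without hypoxic replicate 1 of Col it was 0.91 (adjusted p = 0.022 by edgeR), and without normoxic replicate 2 it was 0.98 (adjusted p = 0.03 by edgeR). In the mutants the groups did not overlap and HSP18.2 was called, with log2 changes of 1.35 ± 0.35 in vq1, 0.92 ± 0.33 in vq10 and 1.69 ± 0.32 in vq1vq10. In vq10 that call was lost without hypoxic replicate 1 or 2, or any of normoxic replicates 1 to 3 (edgeR adjusted p = 0.065 to 0.088).

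AT2G29500, the highest of the set under normoxia, had 2.57, 3.45 and 2.56 CPM in normoxic Col and 7.45, 6.30 and 4.05 CPM in hypoxic Col. The groups did not overlap and the log2 change was 1.04 ± 0.35 (edgeR adjusted p = 0.02). The call in Col was lost without hypoxic replicate 1 or 2 or normoxic replicate 1 or 3 (edgeR adjusted p = 0.054 to 0.093). Log2 changes in the mutants were 1.25 ± 0.35 in vq1, 1.01 ± 0.36 in vq10, where the groups overlap, and 1.40 ± 0.35 in vq1vq10. The vq1 call was lost without hypoxic replicate 1 (0.84, edgeR adjusted p = 0.088). In vq10 the call was lost without hypoxic replicate 1 (0.65, edgeR adjusted p = 0.21), hypoxic replicate 2 (0.072), normoxic replicate 2 (0.068) or normoxic replicate 3 (0.11).

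AT1G07400 rose further, from 0.925, 0.562 and 0.923 CPM to 4.82, 5.13 and 3.55 CPM in Col (log2 change 2.48 ± 0.46, edgeR adjusted p = 0.00015). The Col groups did not overlap, and the change was 1.98 ± 0.46 in vq1, 2.67 ± 0.50 in vq10 and 3.17 ± 0.46 in vq1vq10. HSP17.4 went from 0.463, 0.241 and 0.336 CPM to 2.94, 2.84 and 1.23 CPM in Col (2.73 ± 0.60, edgeR adjusted p = 0.00089). Its log2 changes in the mutants were 3.47 ± 0.60, 2.77 ± 0.64 and 4.98 ± 0.68 for vq1, vq10 and vq1vq10. In vq1vq10 the gene had 2, 4 and 3 normoxic reads and 155, 84 and 38 hypoxic reads. AT1G53540, whose upstream window also holds the 3-unit element, had 2, 2 and 1 read in normoxic Col and 20, 18 and 9 reads in hypoxic Col (3.40 ± 0.86, edgeR adjusted p = 0.0029). The change was 3.34 ± 0.79 in vq1 and 3.09 ± 0.80 in vq10. In vq1vq10 it was a read ratio of 40.9 (95% counting interval 13.7 to 201), with all 3 normoxic reads in replicate 2. HSP17.4 and AT1G53540 thus lay between the class II genes and the pair of HSP18.2 and AT2G29500 in Col, and the order among them was not tested. HSP17.4 and AT1G53540 also entered the test only through hypoxic libraries, so their calls are descriptions.

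Among the organelle members, the mitochondrial HSP23.6-MITO had the highest median TPM under hypoxia. It had 2, 4 and 0 reads in normoxic Col and 48, 71 and 21 reads in hypoxic Col, a log2 change of 4.74 ± 0.75 (edgeR adjusted p = 5.5e-05). It had no normoxic read in vq1 or vq1vq10, where it was at least 43.2-fold and at least 83.6-fold higher in hypoxia, and a ratio of 57.3 (95% counting interval 15.5 to 480) in vq10. Every hypoxic library lay above every normoxic one in all 4 genotypes, beside 23.3% to 25.5% of all tested genes in each. The organelle members entered the test only through hypoxic libraries, so that separation and their calls are descriptions. The endoplasmic reticulum member ATHSP22.0 had no read in normoxic Col and 18, 30 and 3 reads in hypoxic Col, at least 20.3-fold higher (edgeR adjusted p = 0.0011). It was at least 21.9-fold higher in vq1vq10 and had a ratio of 34.8 (95% counting interval 5.77 to 1421) in vq1. The vq1 call was lost without hypoxic replicate 1, which held 19 of 29 hypoxic reads (edgeR adjusted p = 0.092). In vq10, with 11, 2 and 4 hypoxic reads against 1 normoxic read, it did not pass (ratio 20.3, 95% counting interval 3.18 to 849, edgeR adjusted p = 0.052). That value passed without hypoxic replicate 2 (edgeR adjusted p = 0.037), without the low-count filter (0.043), with the replicate block (0.02) and in DESeq2 (0.017).

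The plastid member HSP21, whose calls are likewise descriptions, had the lowest median TPM of the 10 genes under hypoxia. It had 1, 0 and 1 read in normoxic Col and 14, 16 and 2 reads in hypoxic Col (ratio 19.1, 95% counting interval 4.88 to 165, edgeR adjusted p = 0.011). The ratio was 40.8 (6.84 to 1658) in vq1, and in vq1vq10 the gene was at least 18.3-fold higher, with 38, 6 and 7 hypoxic reads and none under normoxia. In vq10 it had 8, 7 and 0 hypoxic reads against 1, 1 and 0 normoxic ones. Those groups overlap, and the ratio of 8.96 (2.08 to 80.7) was not called (edgeR adjusted p = 0.1). It was called without hypoxic replicate 3 (edgeR adjusted p = 0.044) and with the replicate block (0.034).

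**Figure D3:**
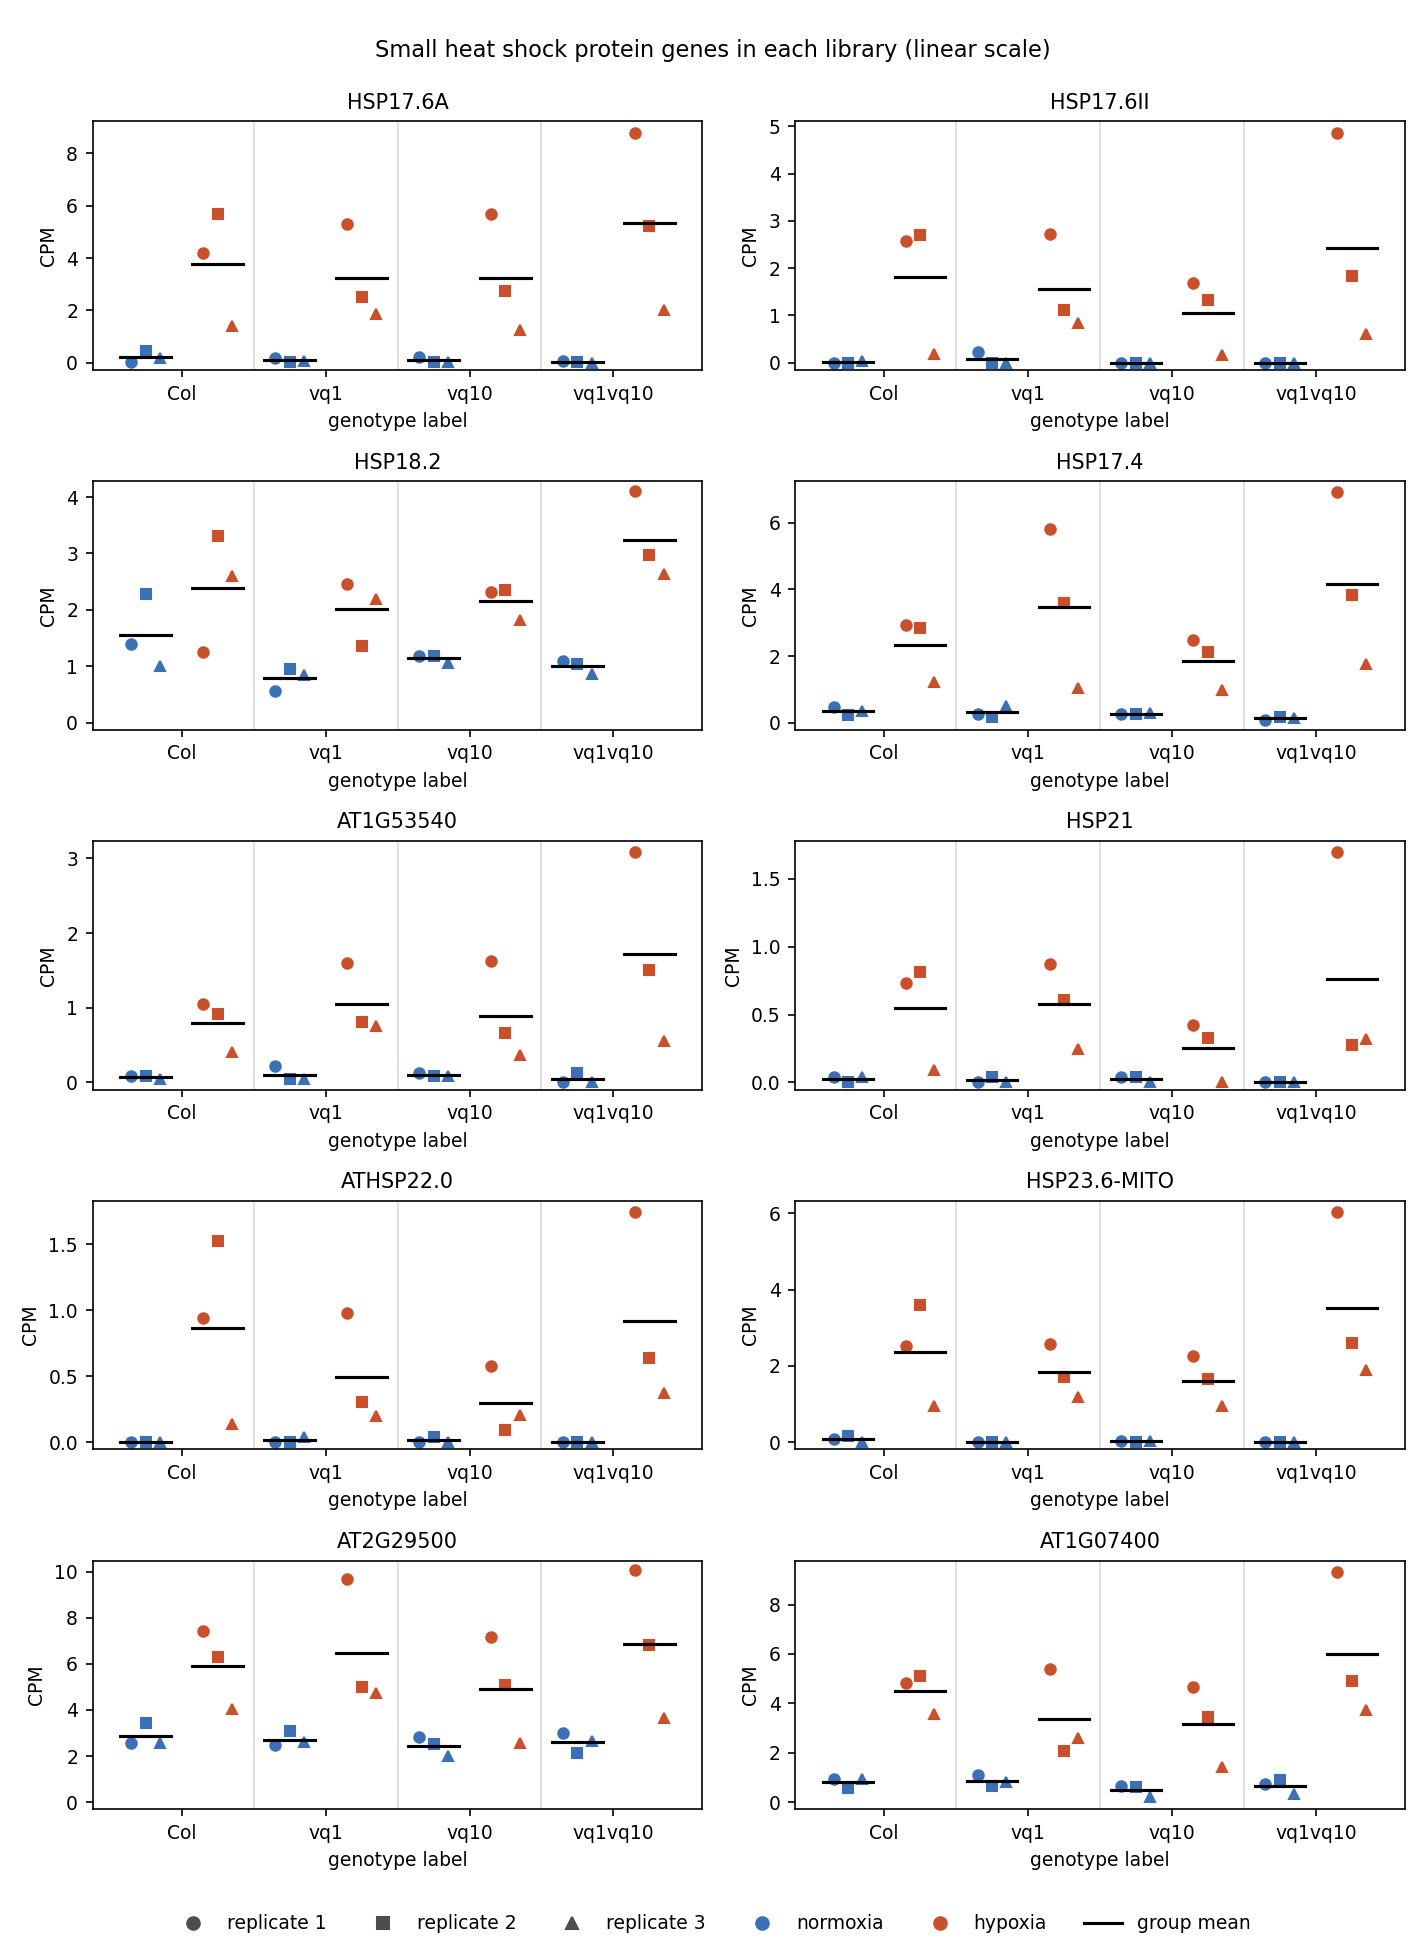
CPM of each of the 10 genes (1 panel per gene, linear y axis from 0) in each library, by genotype (x axis) and condition (colour), with 1 symbol shape per replicate number. Hypoxic points are above normoxic ones in most panels, replicate 1 of hypoxic vq1vq10 is the highest point in all 10 panels, and replicate 3 is the lowest hypoxic point in 35 of 40 groups of 3.

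Replicates of hypoxic seedlings differed widely. The 10 genes summed to 28.5, 32.8 and 14.6 CPM in hypoxic Col, 37.4, 19.1 and 15.7 CPM in vq1, 28.9, 19.8 and 9.69 CPM in vq10, and 56.6, 30.6 and 17.5 CPM in vq1vq10. Within each genotype these sums ranged more widely than the 4 means, which lay between 19.5 and 34.9 CPM. Normoxic sums were 5.98 ± 1.1 CPM in Col (SD, n = 3), 4.95 ± 0.036 in vq1, 4.62 ± 0.81 in vq10 and 4.46 ± 0.51 in vq1vq10, and the highest of them, 7.23 CPM, lay below the lowest hypoxic sum of 9.69 CPM. Biological coefficients of variation ran from 0.233 for HSP18.2 to 0.778 for HSP17.6II, above those of 87.0 to 99.7% of tested genes. Such values depend on level, and the fitted trend at the level of these genes was 0.218 and 0.259. HSP18.2 thus lay close to the trend.

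**Figure D4:**
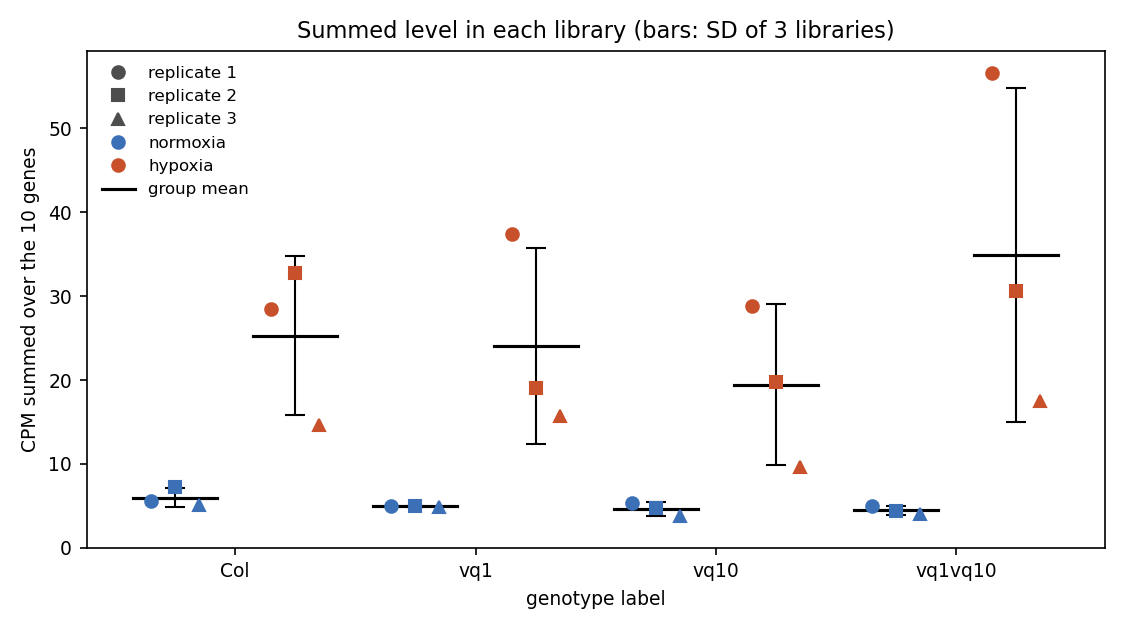
CPM summed over the 10 genes (y axis, from 0) in each of the 24 libraries by genotype (x axis), with group means as lines and SD of 3 libraries as bars. Normoxic means lie between 4.46 and 5.98 CPM, hypoxic means between 19.5 and 34.9 CPM, and the replicate number 3 is the lowest of each hypoxic group.

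The hypoxic libraries numbered 3 were the lowest of their group in 35 of 40 combinations of gene and genotype and the highest in 0, and those numbered 1 were the highest in 32. Number 3 was lowest in all 4 genotypes for 6 of the 10 genes and for 1.38% of all tested genes. Number 1 was highest in all 4 genotypes for 3 genes and for 3.51% of all tested genes. These counts were made after the pattern was seen and are descriptions. The labels name no batch, and what the numbers share was not tested. Seed markers, chosen because maturing seeds also express these genes, summed to 0.977 to 12.8 CPM over 7 genes under normoxia (median 3.09) and to 3.41 to 29.3 CPM under hypoxia (median 4.54). The cruciferin CRU2 had no read in 6 of 8 groups, and each of the other 6 had reads in every group. Root hair markers, 4 genes read in every group, summed to 12.8 to 31.4 CPM under normoxia and 4.63 to 8.83 CPM under hypoxia. The part of these markers in the hypoxia results was not tested.

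None of the 10 genes was called between any mutant and Col, in either condition, in the response to hypoxia, or between the double mutant and a single mutant (edgeR, 13 of 17 contrasts computed). Calls among all genes were also rare, 0.0796% in vq1, 0.0597% in vq10 and 0.0646% in vq1vq10 against Col under normoxia, and 0.0845%, 0.0646% and 0.0845% under hypoxia. For the response relative to Col they were 0% in each mutant. For vq1vq10 they were 0.119% against vq1 and 0% against vq10 under normoxia, and 0.104% and 0% under hypoxia. DESeq2 called none of the 10 genes either. At an unadjusted p under 0.05 (edgeR), 1 gene passed in vq1 against Col under normoxia, 3 in the response of vq1vq10 against Col, 2 in hypoxic vq1vq10 against vq1, 3 in hypoxic vq1vq10 against vq10 and 0 in the other 9 contrasts. Over all genes the share at that p was 7.22%, 3.55% and 4.32% for vq1, vq10 and vq1vq10 against Col under normoxia, and 5.47%, 8.5% and 9.43% under hypoxia. For the response relative to Col it was 3.39%, 8.22% and 8.14%, and for vq1vq10 against vq1 and vq10 it was 4.36% and 2.32% under normoxia and 10.1% and 9.21% under hypoxia. The gene in normoxic vq1 was HSP18.2, at 0.561, 0.944 and 0.852 CPM against 1.39, 2.29 and 1.01 CPM in Col (log2 change -0.99 ± 0.35, edgeR adjusted p = 0.55).

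Under hypoxia the log2 differences from Col ran from -0.80 to 0.58 in vq1, with 4 of 10 above 0, and from -1.55 to 0.17 in vq10, with 1 of 10 above 0. In vq1vq10 they ran from 0.10 to 1.13, with all 10 above 0 and a median of 0.48, beside a median of -0.01 over all tested genes. The 3 comparisons share the Col libraries. The largest difference in vq1vq10, that of AT1G53540, was 1.13 (95% interval -0.05 to 2.30), and the lowest adjusted p among the 10 genes was 0.55 by edgeR. Against vq1 the differences of vq1vq10 ran from 0.08 to 0.94 (median 0.70, lowest edgeR adjusted p 0.45), and against vq10 from 0.48 to 1.65 (median 1.04, lowest edgeR adjusted p 0.5). With the replicate block, 8 of the 10 genes passed an unadjusted p of 0.05 against vq10 in place of 3, beside 9.27% of all tested genes, and none was called (lowest edgeR adjusted p 0.4). With numbers nested in condition, a fit added after the data were seen, 9 passed, beside 10.4% of all genes (lowest edgeR adjusted p 0.19). Without replicate 1 of hypoxic vq1vq10 none passed, beside 5.78% of all genes (lowest edgeR adjusted p 0.86). Markers of green tissue moved with this group. Their sum was 71430, 67200 and 77930 CPM in hypoxic vq1vq10, against 93400, 95510 and 72540 in Col, 81080 to 86760 in vq1 and 86430 to 93810 in vq10. All 5 markers were lower in hypoxic vq1vq10, with median log2 differences of -0.28, -0.27 and -0.34 from Col, vq1 and vq10, and 3, 4 and 4 of 5 passed an unadjusted p of 0.05 while none was called (edgeR). Their part in the differences of the 10 genes was not tested.

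The direction against Col and vq1 turned for many genes without 1 library. Replicate 1 of hypoxic vq1vq10 was the highest of the 12 hypoxic libraries for all 10 genes, and replicate 3 of hypoxic vq10 the lowest for 8. Without the former, 3 of 10 differences from Col were above 0, with a median of -0.05 (-0.83 to 0.40). Against vq1 5 of 10 were then above 0 (median 0.02), and against vq10 all 10 were (median 0.31, 0.09 to 0.80). Without replicate 3 of hypoxic Col, the differences from Col of HSP17.6II, HSP21 and ATHSP22.0 were -0.11, -0.01 and -0.42. For the response to hypoxia, the difference of vq1vq10 from Col was 1.08 ± 0.45 for HSP18.2 (95% lower end 0.14, edgeR adjusted p = 0.56) and 2.25 ± 1.01 for HSP17.4 (95% lower end 0.16, edgeR adjusted p = 0.58). For AT2G29500 it was 0.36 ± 0.50 and for AT1G07400 0.69 ± 0.66 (edgeR adjusted p = 0.87 and 0.81). None of these genes was called, HSP18.2 and HSP17.4 included. HSP17.4 had 9 normoxic reads in vq1vq10 and entered the test only through hypoxic libraries.

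**Figure D5:**
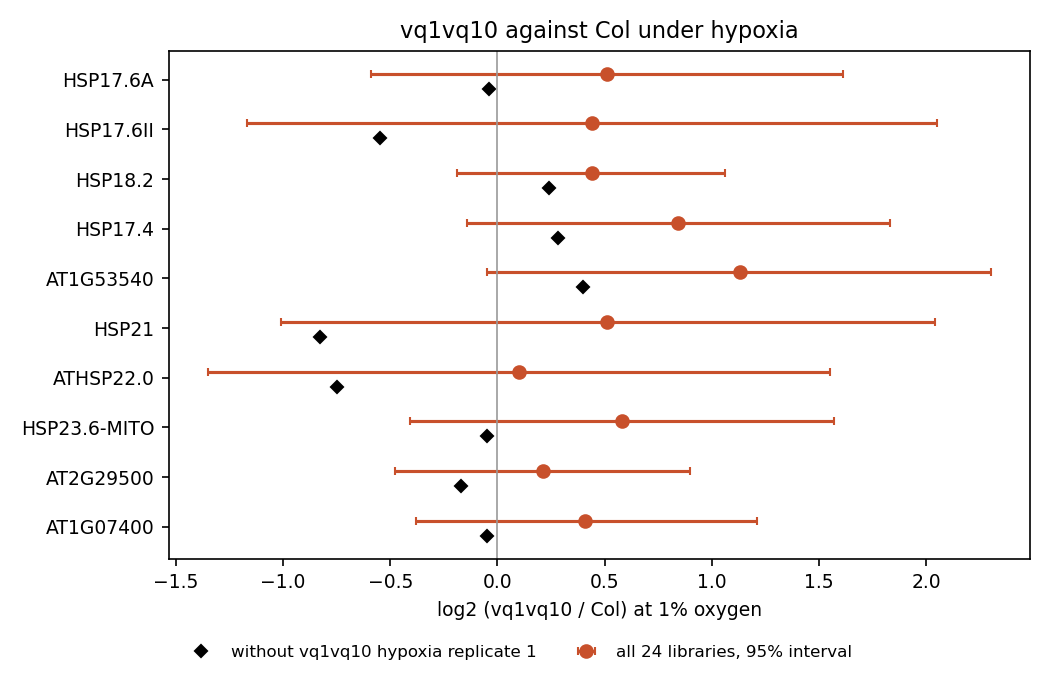
Log2 difference of vq1vq10 from Col under hypoxia (x axis) for each of the 10 genes (y axis), with all libraries and without replicate 1 of hypoxic vq1vq10; lines are 95% intervals. All 10 values are above 0 with all libraries and 3 of 10 without that library.

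Genes that act beside these 10 in the heat response were taken as further lists. Over all tested genes 21.9% were called higher and 19.9% lower in Col, and shares of a list near these are no result about it. Of 9 other small heat shock protein genes, 4 were called higher and 1 lower in Col (edgeR), and 1 of the 9, AT1G52560, passed the low-count filter only through hypoxic libraries. AT5G51440 rose by 1.75 ± 0.29 log2, AT1G54050 by 0.82 ± 0.25, ACD32.1 by 0.65 ± 0.12 and AT1G59860, the near copy of AT1G07400, by 1.87 ± 0.73. Without hypoxic replicate 1 of Col 2 of the 9 were called higher. Of 19 heat shock factor genes tested, 5 were called higher and 3 lower in Col, shares close to those over all genes. HSFA2, HSFA6B and HSFB3 entered the test only through hypoxic libraries, so HSFA2 had to differ and its values are a description. HSFA2, a factor induced in heat that activates small heat shock protein genes, had 0.168, 0.201 and 0.168 CPM in normoxic Col and 2.05, 1.17 and 0.774 CPM in hypoxic Col. All hypoxic libraries were higher, replicate 1 most, and the log2 change was 2.84 ± 0.74 (edgeR adjusted p = 0.0036). HSFA2 was called in the mutants as well, at 2.87 ± 0.79 in vq1, 3.32 ± 0.84 in vq10 and 3.51 ± 0.72 in vq1vq10. HSFA6A rose by 2.50 ± 0.68 and HSFB4 by 0.83 ± 0.19, while HSFA3 fell by 1.01 on the log2 scale.

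Of 22 chaperone genes of the larger families, 8 were called higher and 5 lower in Col, the latter again a share close to that over all genes, and 5 were called higher without hypoxic replicate 2. HSP70 rose by 1.15 ± 0.27 log2, HSP90.1 by 1.05 ± 0.25 and HSP101, the disaggregase that works with small heat shock proteins, by 0.96 ± 0.25, while Hsp70-2 fell by 1.16. HSP101 had 5.64, 5.54 and 6.0 CPM in normoxic Col and 13.7, 11.2 and 8.70 CPM in hypoxic Col, so that the groups were apart. In vq1vq10 its hypoxic CPM were 24.1, 20.6 and 13.5, a log2 difference from hypoxic Col of 0.79 ± 0.24 that was not called (edgeR adjusted p = 0.35). Of 5 other heat response genes tested, 4 were called higher and 1 lower in Col. GolS1, which makes galactinol, rose by 1.42 ± 0.16, the factor DREB2A by 1.38 ± 0.30, the coactivator MBF1C by 0.76 ± 0.24 and HSA32 by 0.53 ± 0.19. Without hypoxic replicate 1 or normoxic replicate 2 of Col 2 of these were called higher, and the lower call was lost without hypoxic replicate 1 or 3 or normoxic replicate 1 or 2.

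Genes were ranked by how closely their level followed the mean log2 level of the 10. The rank took the smaller of the correlations within normoxia and within hypoxia, over 12 libraries each. CDA1, a cytidine deaminase, came highest (Pearson r 0.707 under normoxia and 0.679 under hypoxia), followed by AT5G54920 (0.769 and 0.638) and CLPB4, a mitochondrial relative of HSP101 (0.635 and 0.651). AT5G42830, AT1G09580, AT5G53090, AT3G13800, AT3G03590, AT1G24148 and AT3G59290 followed, with a smaller r of 0.63 down to 0.574. The rank leans on normoxia, where reads of the 10 genes were few. Each of the 10 is itself part of that mean, so their r cannot be set beside those of other genes. Their own r with that mean ran from 0.016 (ATHSP22.0) to 0.806 (HSP17.6A) under normoxia. Under hypoxia it ran from 0.441 (HSP18.2) to 0.973 (HSP17.6A). By hypoxia alone BAG6 (0.959) and C/VIF1 (0.958) came highest, with normoxic r of 0.123 and -0.452. The points share genotype, replicate number and depth, and the highest of many genes were picked, so these values describe likeness only.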

How the data were processed

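RNA-seq of whole seedlings was analysed in 24 libraries, grouped by the labels. HISAT2 2.0.4, DESeq2 and TAIR10 appear, without their roles, in the submitters' processing notes; no source used here gives the read counter, its strand setting or its handling of shared reads. The deposited expected counts (525 to 581 genes per library are not whole within 1e-09, none of them among the 10 genes) were rounded. The deposited TPM served to compare genes and were not tested. Positions and sequences are from TAIR10.1; genes were matched by locus.

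All libraries entered 1 quasi-likelihood fit in edgeR 4.0.16 under R 4.3.3, with 1 coefficient for each group, after TMM scaling (factors 1.03 to 1.108 under normoxia, 0.876 to 1.018 under hypoxia) and filterByExpr, leaving 20110 genes. It gave 17 contrasts, with Benjamini-Hochberg adjustment over all tested genes and calls at an adjusted p under 0.05. Groups without reads are given as bounds against 3 reads over the group, groups with 1 to 3 reads as ratios with exact 95% counting intervals. The fit was tested on simulated data in which every gene had the same biological coefficient of variation, 0.127, and genes with few reads were left out. Those of the 10 genes ran from 0.233 to 0.778, so that test does not show how the fit behaves for them. Replicate libraries differed by more than sampling noise (chi-square over degrees of freedom at least 6.14).

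The members and lists were chosen with earlier results of these data known. Named genes are the 10 members, VQ1 and VQ10, and of each other list up to 4 called genes with the largest change in Col. The 10 genes most like the members, among those averaging 1 or more on the log2 CPM scale, are named too. BAG6 and C/VIF1 were added as the highest by the hypoxic correlation alone. HSP101 and HSFA2 were given further values after theirs were seen. The known hypoxia genes were used only as a check of the oxygen labels.

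Alternatives were DESeq2 1.42.0, RLE factors, a robust edgeR fit, no low-count filter, a fit restricted to the groups compared, replicate number as a blocking term, and omission of each library in turn. Every r of residuals between same-numbered libraries was over 0.1 in vq1vq10 against vq10 under normoxia (0.38, 0.196 and 0.166) and under hypoxia (0.188, 0.112 and 0.101). The same held in vq1vq10 against vq1 under hypoxia (0.199, 0.255 and 0.152) and in no other comparison. Yet in hypoxic groups compared with each other 14 of 15 pairs were best with their own number. The labels do not say what a number marks.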

Additional observations from a re-analysis of the deposited data

How the results depend on the processing

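The counts of the 10 genes called higher under hypoxia were 8 to 10 in Col, 8 to 10 in vq1, 6 to 9 in vq10 and 10 in vq1vq10 when each library was left out in turn. When only the groups compared were fitted they were 5, 8, 6 and 8. This was because only 6, 8, 6 and 8 members passed the low-count filter there. Every member called over all libraries that was still tested was called. Members with low normoxic levels could again pass that filter only through hypoxic libraries, so their calls there are descriptions. With 2 alternatives added after the data were seen, replicate numbers nested in condition and leaving out the 4 hypoxic libraries numbered 1 (chosen because they held the most reads of these genes), no count of members changed by over 1.5 times; without those 4 libraries the counts were 10, 9, 7 and 10. The replicate block, paired by number, changed the calls of HSP21 and ATHSP22.0 in vq10 given above and no other member's call. Numbers of hypoxic groups compared with each other had a median residual correlation of 0.14 (14 of 15 pairs best with their own number), against -0.09 between hypoxic and normoxic groups (1 of 12 pairs).

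No mutant contrast gained a call for the 10 genes under any alternative run, but directions in hypoxic vq1vq10 reversed, and the cause was not tested. Against Col, omission of single libraries moved the log2 difference between -0.04 and 0.95 for HSP17.6A, -0.55 and 0.90 for HSP17.6II, -0.83 and 0.93 for HSP21, -0.75 and 0.80 for ATHSP22.0, -0.05 and 1.03 for HSP23.6-MITO, -0.17 and 0.52 for AT2G29500, and -0.05 and 0.67 for AT1G07400. Each lowest value came without replicate 1 of hypoxic vq1vq10; without replicate 3 of hypoxic Col it was -0.11 for HSP17.6II, -0.01 for HSP21 and -0.42 for ATHSP22.0. Without the 4 hypoxic libraries numbered 1 it was -0.20 for HSP17.6II, -0.05 for HSP18.2, -0.54 for HSP21 and -0.66 for ATHSP22.0. Against vq1 the ranges were -0.35 to 1.31 for HSP17.6II, -0.30 to 0.85 for HSP17.4, -0.02 to 1.14 for AT1G53540, -0.93 to 0.84 for HSP21 and -0.30 to 0.49 for AT2G29500, each lowest again without that vq1vq10 library. Replicate 3 of hypoxic vq1 also reversed HSP17.4 (-0.16) and AT2G29500 (-0.09), replicate 2 AT2G29500 (-0.07), and the omission of the 4 libraries HSP21 (-0.49). These contrasts were chosen for this check after all 17 had been seen. Groups with 3 or fewer normoxic reads in 6 members (HSP17.6A, HSP17.6II, AT1G53540, HSP21, ATHSP22.0 and HSP23.6-MITO) leave the size of those changes limited by counting.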
